A study of Mus musculus with 3 samples.

Results

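The genes described here encode the enzymes and regulators that make cholesterol and fatty acids. They are a fixed list of 32 members among the 50262 genes of the count table, and all 32 had a row. The list holds 9 genes of the mevalonate and squalene steps, 9 genes from lanosterol to cholesterol, 4 regulators and sterol carriers, 3 genes of fatty acid synthesis, 3 elongases and 4 desaturases. Single-cell RNA-seq on the inDrop droplet system was used to profile mouse glioblastoma sorted on CD45, a surface protein of immune cells, microglia included. A single tumor sample was taken at each of 3 stages of tumor growth, and the early sample pooled the cells of 2 samples. The library annotation labels the stages early, medium and large, and large is called late here. Each tumor sample gave a CD45+ and a CD45- sort, and the libraries were spread over 3 sequencing runs that each mixed stages and sorts.

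All animals shared 1 genotype and bore tumors, with no tumor-free brain among the samples analysed here. They were adult mice of both sexes on a mixed background, carrying a conditional transgene for wild-type human EGFR and a conditional luciferase reporter, among other alleles, with Cdkn2a lost in every cell. Tumors were started by injecting a lentivirus that encodes TGFa and Cre recombinase into the striatum, so the human EGFR rows mark cells that recombined. The whole brain without the cerebellum was dissociated, and myelin was removed on Percoll before the sort. With 1 tumor sample per stage, stages were compared as values without a test. Classes and sorts were compared over the 3 tumor samples, each of which gave a sum of UMIs (unique molecular identifiers, 1 per captured transcript) for every class. Levels are given as CPM, the share of a class's UMIs that fell on a gene, times 1000000.

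Cholesterol is built from acetyl-CoA through mevalonate and squalene to lanosterol, which a second series of enzymes turns into cholesterol. SREBP transcription factors, encoded by Srebf1 and Srebf2, switch these genes on when sterols run low, and INSIG proteins hold them back. The adult brain makes its own cholesterol because lipoproteins of the blood do not cross into it, with oligodendrocytes needing it for myelin and astrocytes passing it to neurons in particles that carry apolipoprotein E.

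Of the 17764 cells kept, each tumor sample gave 2094 to 5091 in the CD45+ sort and 1603 to 2725 in the CD45- sort, with 5319519 to 10808099 UMIs per tumor sample and sort. A total of 2116 cell barcodes occurred in more than 1 library and were carried by 4590 cells. In the tumor class, the human EGFR transgene was counted at 508 (early), 1933 (medium) and 1907 CPM (late). In the medium and late samples 85.2% and 85.6% of tumor-class cells held a transgene UMI. Part of this share is set by the naming, since a cluster was named tumor only where at least 20% of its medium and late CD45- cells held one. The early tumor class held 37 cells, of which 10.8% did, and its 31 Pdgfra-led cells held none, which allows up to 35.4 CPM. Its summed myelin RNA (8 genes) was 15337 CPM, against 3876 and 4401 in the medium and late samples. Late progenitor-like cells held transgene RNA at 956 CPM, in 26.0% of cells. Of the 1449 tumor cells, 161 lay in 3 clusters with summed myelin RNA above 10000 CPM, and genes of progenitors or committed precursors (Pdgfra and Matn4, Enpp6 and Bmp4, or Bcas1) were among their leading genes. The oligodendrocyte markers Klk6 and Opalin were at 301 and 221 CPM in the cluster with Pdgfra and Matn4. In an oligodendrocyte-like cluster led by Klk6 they were at 336 and 297. They were at 0 and 18.2 in the cluster with Enpp6, and at 0 and 10.9 in that with Bcas1. Whether RNA of oligodendrocytes was mixed into these clusters was not tested. The tests of the members in tumor cells were therefore also run without the early sum and without these clusters, while summed levels, class orders and the neighbouring lipid lists include them. The late astrocyte-like sum was small, with 28 cells and 43972 UMIs, so that 3 UMIs correspond to 68.2 CPM. Nsdhl in that sum rests on 3 UMIs, and Sc5d, Nsdhl, Mvk, Mvd and Ebp in the early tumor sum rest on 1 UMI each.

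The summed level of the synthesis genes was highest in the myelin-forming and sterol-exporting glia. Summed over the 32 members, the level was 11605 ± 557 CPM in oligodendrocyte-like cells (SD, n = 3 tumor samples) and 8325 ± 1263 in astrocyte-like cells. Oligodendrocyte progenitor-like cells reached 4496 ± 694 and tumor cells 4196 ± 493, which differ by less than their spread. In the CD45+ sort, macrophage or monocyte-like cells held 990 ± 137 and microglia-like cells 925 ± 20.4. Scd2, a desaturase that puts a double bond into stearate and palmitate, gave most of the sum in oligodendrocyte-like cells, at 7572, 8050 and 8148 CPM from early to late. Without Scd2, astrocyte-like cells were highest at 4626 ± 723, followed by 3681 ± 296 in oligodendrocyte-like cells, 2678 ± 460 in progenitor-like cells and 2405 ± 137 in tumor cells. The single values of neighbours in this order overlapped, except that every astrocyte- and oligodendrocyte-like value lay above every progenitor and tumor value.

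Among 17 classes with at least 20 cells in a tumor sample, the mean level was highest in astrocyte-like cells for 14 members and in oligodendrocyte-like cells for 10. The values overlapped those of the next class for 8 of these 14 (Mvd, Idi1, Tm7sf2, Nsdhl, Dhcr7, Srebf2, Insig1 and Fasn) and for 4 of these 10 (Pmvk, Acly, Elovl6 and Scd1). Ependymal-like and neuroblast-like cells, which reached 20 cells in the early sample alone, were highest for 2 members each. Single members peaked in border or perivascular macrophage-like cells (Ebp, the sterol isomerase), endothelial-like cells (Stard4, a carrier of cholesterol between membranes), neuron-like cells (Fdps, which makes farnesyl pyrophosphate) and progenitor-like cells (Lss, which closes squalene epoxide into lanosterol), but for each of these 4 the values overlapped those of the next class. Tumor cells were highest for no member. They came second for Elovl1, behind oligodendrocyte-like cells, and for Pmvk, where the early tumor value of 72.5 lay above the 41.3 and 32.4 of the medium and late samples. The myelin-forming class led for Hmgcs1, the first committed enzyme towards mevalonate, at 405, 423 and 398 CPM, which lay above the 284, 265 and 322 of progenitor-like cells. Astrocyte-like cells led for Msmo1, the sterol methyl oxidase, at 532, 647 and 728, against 215, 203 and 256 in oligodendrocyte-like cells. Fads2, a desaturase of polyunsaturated fatty acids, was highest in astrocyte-like cells, at 21.9, 62.2 and 22.7, and gave 0, 0 and 1 UMI in the oligodendrocyte-like sums. Its late astrocyte-like value lies below the level that 3 UMIs give in that small sum.

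**Figure D1:**
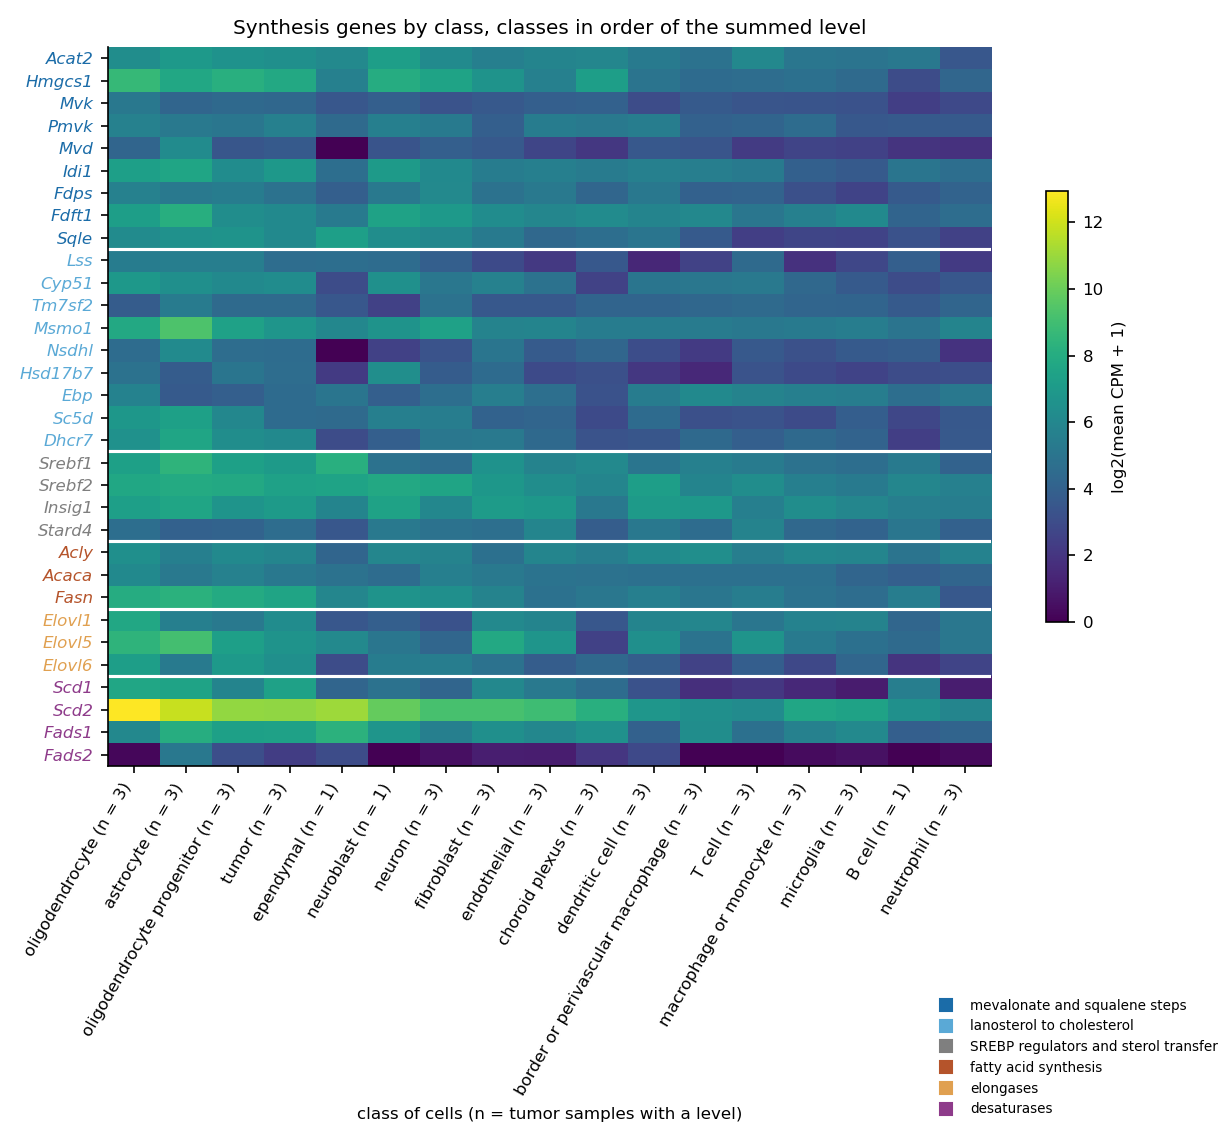
Mean level of each of the 32 members (rows, coloured by step) in 17 classes (columns, in order of the summed level), as log2(mean CPM + 1), with n the tumor samples that gave a level. The oligodendrocyte and astrocyte columns are brightest and the CD45+ classes darkest, and Scd2 is the brightest row.

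The oligodendrocyte-like cells fell into a cluster of 949 cells led by Klk6 and a cluster of 1791 cells led by Opalin, both formed without the members. Hemoglobin RNA was also among the leading genes of the first, with Hbb-bs at 3329 CPM against 48.4. Hmgcs1 was at 501 CPM in the Klk6-led cluster and 338 in the Opalin-led one, Elovl5 at 451 and 257, and Scd2 at 7831 and 7867. Fads1 went the other way, at 35.4 and 85.6. These are pooled cells of the 3 tumor samples and were not tested.

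The CD45+ sort held much less RNA of the pathway than the CD45- sort. Of the 32 members, 24 were lower in the CD45+ sort and 1 was higher (edgeR quasi-likelihood test on the summed UMIs with the tumor sample as a block, Benjamini-Hochberg adjustment over 18510 genes, threshold 0.05). Over all genes, 25.7% were lower and 20.3% higher. The median log2 fold change was -1.21 over the members and -0.038 over all genes. In a whole sort, fewer cells of a type and less RNA per cell cannot be told apart, and all 8 myelin genes were lower too, with a summed level of 513 to 934 CPM in CD45+ and 20973 to 39083 in CD45-.

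In the CD45+ sums, Scd2 was at 228 (early), 253 (medium) and 367 CPM (late), and in the CD45- sums at 3896, 3598 and 2608. The groups stood far apart, and the log2 fold change was -3.22 (SE 0.36, adjusted p = 0.000469, edgeR). Scd1, its neighbour and paralog with the same reaction, was at 4.9, 30.3 and 20.9 against 121, 155 and 147, a log2 fold change of -2.84 (SE 0.47, adjusted p = 0.00288). How the authors' counting divided reads between these similar genes was not tested. Hmgcs1 was at 34.8, 28.4 and 34.8 against 258, 256 and 207, with a log2 fold change of -2.52 (SE 0.22, adjusted p = 0.000205). Sqle, the squalene epoxidase, was at 9.34, 13.2 and 8.27 against 51.4, 58.5 and 65.0, a log2 fold change of -2.15 (SE 0.24, adjusted p = 0.000467). Elovl6, which lengthens palmitate, was at 19.8, 14.4 and 15.8 against 76.0, 88.1 and 108, and fell by 2.07 on the log2 scale (SE 0.23, adjusted p = 0.000434). Fasn, the fatty acid synthase, was at 21.6, 47.5 and 47.9 against 139, 173 and 208, with a log2 fold change of -1.86 (SE 0.25, adjusted p = 0.000942).

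The exception was Ebp. It was at 46.5, 37.7 and 52.8 CPM in CD45+ and at 31.9, 34.3 and 35.1 in CD45-, a log2 fold change of 0.79 (SE 0.19, adjusted p = 0.0127, edgeR). All 3 CD45+ values were above all 3 CD45- values, but the call was lost without scaling factors and without the late sample. Tm7sf2, a sterol reductase, had a fold change of 0.63 on the log2 scale and overlapped between the sorts (adjusted p = 0.0514). Within run 2 alone, 1 member was higher and 21 lower, and within run 3 alone the counts were the same. Run 1, with 91 to 686 CD45+ cells per tumor sample, was not fitted alone.

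Between tumor cells and progenitor-like cells, 4 members passed the test. Of 29 members tested, 2 were higher in tumor cells (over all 8290 genes tested, 11.0%) and 2 were lower (11.5%), a share near the background. On simulated counts, which are simpler than the data and hold fewer changed genes, this fit recovered 36.5% of 2-fold changes. The median log2 fold change was -0.2 over the members and -0.091 over all genes. The 9 mevalonate and squalene genes gave none that passed (8 tested), and neither did the regulators or the 3 genes of fatty acid synthesis. The tumor class is a mixture here, since the 9 genes summed to 599, 812 and 837 CPM in progenitor-like cells, to 945, 746 and 919 in Pdgfra-led tumor cells and to 261 and 365 in Lgals1-led ones. Mvd, Stard4 and Fads2 had too few UMIs to be tested.

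Scd1 (chr19:44394455-44407879, GRCm38) was at 99.7, 246 and 158 CPM in the tumor cells of the early, medium and late samples. In progenitor-like cells it was at 30.9, 59.2 and 79.3, on 11, 17 and 18 UMIs. All tumor values were above all progenitor values, with a log2 fold change of 1.76 (SE 0.37, adjusted p = 0.00174, edgeR). It was 2.08 without the early tumor sum (adjusted p = 0.000109), 2.0 without the 3 myelin-rich clusters (0.000323) and 2.36 without progenitor-like cells holding a transgene UMI (0.000153). Without the medium sample it was 1.37 and did not pass (adjusted p = 0.102). Run 2 alone gave 1.95 and run 3 alone 2.89, both past the threshold. The tumor class holds 2 kinds of cells (Lgals1-led and Pdgfra-led clusters), and in the Pdgfra-led kind alone Scd1 was at 94.5, 68.9 and 96.1, which overlaps the progenitor-like values. That comparison was not tested.

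Elovl1, which lengthens saturated fatty acids to very long chains, was at 81.6, 67.7 and 85.2 in tumor cells and at 36.6, 45.3 and 26.4 in progenitor-like cells. The values did not overlap, and the log2 fold change was 1.09 (SE 0.35, adjusted p = 0.027, edgeR). It did not pass in run 2 alone (0.98, adjusted p = 0.299) or run 3 alone (1.01, adjusted p = 0.4), nor without the medium (1.36, adjusted p = 0.134) or the late sample (0.97, adjusted p = 0.21). Both lower members act after squalene in sterol synthesis. Lss (chr10:76531588-76557138) was at 36.3, 15.4 and 18.7 in tumor cells and 47.8, 41.8 and 48.5 in progenitor-like cells, a log2 fold change of -1.16 (SE 0.40, adjusted p = 0.0385, edgeR). In Pdgfra-led tumor cells Lss was at 47.2, 23.2 and 35.2, and in Lgals1-led cells at 3.35 and 7.22. Sc5d, which makes the last double bond before the final reduction, was at 9.06, 33.4 and 24.6 against 73.1, 59.2 and 52.9, a log2 fold change of -1.07 (SE 0.36, adjusted p = 0.0388). Of 19 alternatives, Scd1 was called in 18, Elovl1 in 15, Sc5d in 6 and Lss in 4. Lss did not pass without the myelin-rich clusters (adjusted p = 0.0612), and Sc5d did not pass without the early tumor sum (adjusted p = 0.0962). Msmo1, at -0.76 (adjusted p = 0.0575, edgeR), was lower past the threshold without the early tumor sum (-0.80, adjusted p = 0.0399) and without the myelin-rich clusters (-0.82, adjusted p = 0.0384), and in 5 of the 19 alternatives in all.

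Scd2, the most counted member, was at 2203, 1697 and 1473 CPM in tumor cells and at 1645, 1652 and 2158 in progenitor-like cells. The groups overlapped, with a log2 fold change of 0.02. Beside these differences, 9 of 11 cell cycle genes were higher in tumor cells, with a summed level of 812 to 1288 CPM against 143 to 191. Of the 8 myelin genes, 6 were higher as well, at a summed 3876 to 15337 against 1080 to 1652. Their part in the results was not tested.

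Against oligodendrocyte-like cells, tumor cells were lower for most members tested. Of 29 members tested, 21 were lower (19.8% of all genes) and 1 was higher (24.0% of all genes), with a median log2 fold change of -1.04 against 0.079 over all genes. The lower members were 5 of the mevalonate and squalene steps, 6 from lanosterol to cholesterol, all 3 regulators tested, all 3 of fatty acid synthesis, all 3 elongases and 1 desaturase. Without the early tumor sum 23 members were lower, and without the myelin-rich clusters 22 were, in each case with all 21 of these among them.

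Scd2 showed the widest gap. Its 1473 to 2203 CPM in tumor cells compare with 7572 to 8148 in oligodendrocyte-like cells, a log2 fold change of -2.54 (SE 0.23, adjusted p = 1.85e-08, edgeR). Sc5d was at 124, 91.9 and 132 in oligodendrocyte-like cells, a log2 fold change of -2.40 (SE 0.31, adjusted p = 1.62e-06). Elovl5, an elongase of polyunsaturated fatty acids, was at 63.5, 143 and 97.3 in tumor cells and 351, 297 and 372 in oligodendrocyte-like cells, with a log2 fold change of -2.02 (SE 0.28, adjusted p = 5.2e-06). Elovl1, higher in tumor cells than in progenitor-like cells, was here the lower one, with 182, 219 and 240 in oligodendrocyte-like cells and a log2 fold change of -1.86 (SE 0.27, adjusted p = 6.64e-06). Msmo1 was at 145, 81.8 and 91.6 in tumor cells against 215, 203 and 256, a log2 fold change of -1.60 (SE 0.26, adjusted p = 4.08e-05). Fdft1, the squalene synthase, was at 72.5, 64.6 and 72.2 against 137, 129 and 187, a log2 fold change of -1.57 (SE 0.27, adjusted p = 7.71e-05).

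The other 15 lower members had log2 fold changes from -1.50 (Lss) to -0.65 (Srebf1). Hmgcs1 was among them, at 299, 196 and 170 CPM in tumor cells and a log2 fold change of -1.34 (adjusted p = 0.000584, edgeR). Idi1, Dhcr7, Insig1 and Srebf2 were higher in tumor cells in 1 of the 3 samples, the early one. The member that ran against the rest was Fads1, a desaturase of polyunsaturated fatty acids. It was at 181, 175 and 152 in tumor cells and 61.2, 70.2 and 62.0 in oligodendrocyte-like cells, a log2 fold change of 0.97 (SE 0.29, adjusted p = 0.00854). Pmvk, Sqle, Scd1, Hsd17b7, Acat2, Nsdhl and Tm7sf2 did not pass. Without scaling factors, which moved the median of all genes to 0.42, 12 members were lower and Fads1 stayed higher. Without the medium or without the late sample 11 were lower and 0 higher, although Fads1 stayed above 0 in both (0.95, adjusted p = 0.122 and 0.0509, edgeR). Within run 2 alone 14 were lower and 1 was higher, and within run 3 alone 19 were lower and 0 higher by edgeR (21 lower and 0 higher at an unadjusted p under 0.05). All 8 myelin genes were lower in tumor cells, with summed levels of 3876 to 15337 against 77567 to 95193, and 9 of 11 cell cycle genes were higher.

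**Figure D2:**
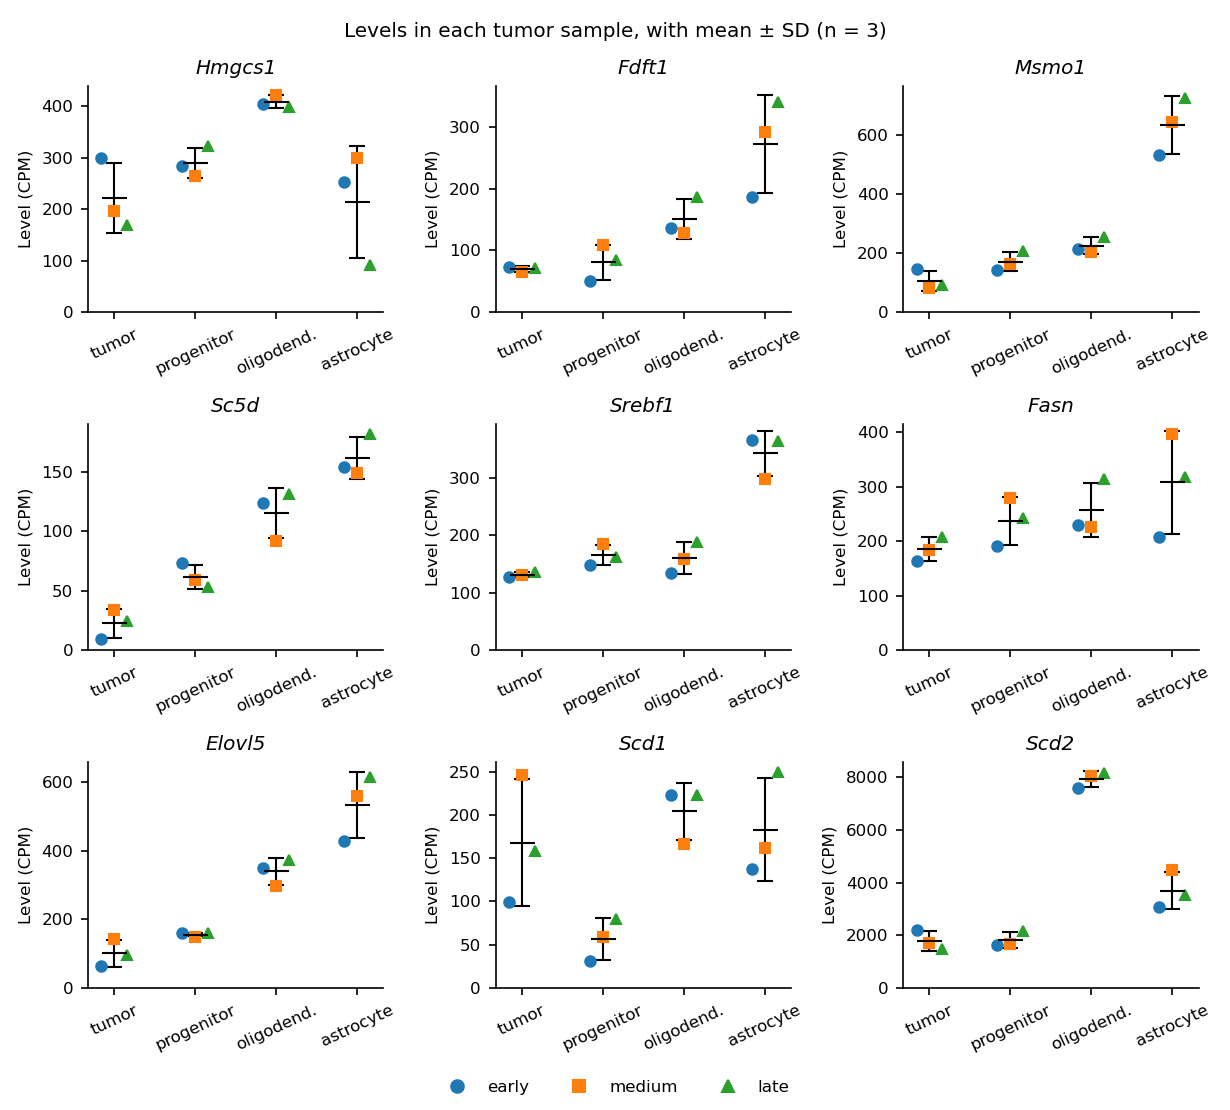
Level of 9 members (CPM) in tumor, progenitor-like, oligodendrocyte-like and astrocyte-like cells, with 1 point per tumor sample (circle early, square medium, triangle late) and the mean ± SD (n = 3). Scd2 and Hmgcs1 stand highest in oligodendrocyte-like cells, Msmo1, Fdft1, Sc5d, Srebf1 and Elovl5 in astrocyte-like cells, and all 3 tumor values of Scd1 lie above the progenitor values.

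Astrocyte-like cells exceeded tumor cells in a smaller set, which held 4 of 9 genes from lanosterol to cholesterol. Of 29 members tested, 11 were lower in tumor cells (10.7% of all genes) and 0 were higher (10.6% of all genes). The median log2 fold change was -0.73 over the members and 0.083 over all genes. At an unadjusted p under 0.05 edgeR gave 14 lower and 0 higher, and DESeq2 called 0 higher too. With every deposited cell kept, 10 were lower and 1, Elovl1, was higher. Among the cells kept, Elovl1 had a log2 fold change of 0.73 and did not pass (adjusted p = 0.248, edgeR), with 21.9, 49.8 and 68.2 in astrocyte-like cells against 81.6, 67.7 and 85.2 in tumor cells, which overlap. Without the early tumor sum 11 members were lower, 10 of them the same, and without the myelin-rich clusters the same 11 were lower.

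Msmo1 led this set, with 532 to 728 CPM in astrocyte-like cells against 81.8 to 145 in tumor cells, a log2 fold change of -2.86 (SE 0.29, adjusted p = 2.82e-07, edgeR). Sc5d was at 154, 149 and 182 in astrocyte-like cells, a log2 fold change of -2.61 (SE 0.37, adjusted p = 3.29e-05). Elovl5 was at 428, 560 and 614, a log2 fold change of -2.40 (SE 0.30, adjusted p = 6.44e-06). The tumor values of these genes all lay below. Fdft1 was at 186, 293 and 341, a log2 fold change of -2.14 (SE 0.31, adjusted p = 4.13e-05). Dhcr7, which performs the final reduction to cholesterol, was at 104, 237 and 250 against 99.7, 48.4 and 59.8 in tumor cells, a log2 fold change of -1.91 (SE 0.40, adjusted p = 0.00154). Nsdhl, a sterol dehydrogenase, was at 43.9, 106 and 68.2 against 9.06, 32.1 and 27.4, with a log2 fold change of -1.57 (SE 0.48, adjusted p = 0.0221).

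Srebf1 was the regulator that differed, at 367, 299 and 364 CPM in astrocyte-like cells against 127, 131 and 136 in tumor cells, a log2 fold change of -1.54 (adjusted p = 0.00032, edgeR). Scd2, Idi1, Fads1 and Fasn completed the set, from -1.20 to -0.89. Without the early sample 11 members were lower, 9 of them the same. Of the members, 5 were lower without the medium sample and 7 without the late sample, 7 in run 2 alone and 2, Srebf1 and Elovl5, in run 3 alone. In run 3 the early sample alone reached 20 astrocyte-like cells, so that fit has 1 astrocyte-like sum, which is assumed to vary like the other sums. Nsdhl turned to 6.76 there (adjusted p = 0.462). The summed level of 8 genes used as myeloid markers was 8118 ± 962 in astrocyte-like cells and 495 ± 95.5 in tumor cells. Of that, Cst3, which astrocytes also express, gave 6914, 8353 and 8642, and 6 of the 8 genes were at 0 in the late astrocyte-like sum. Transgene RNA was at 131 and 136 CPM in the medium and late astrocyte-like sums, in 1.79% and 14.3% of cells, and cell cycle RNA was at 186, 93.4 and 932. Their part in the results was not tested.

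**Figure D3:**
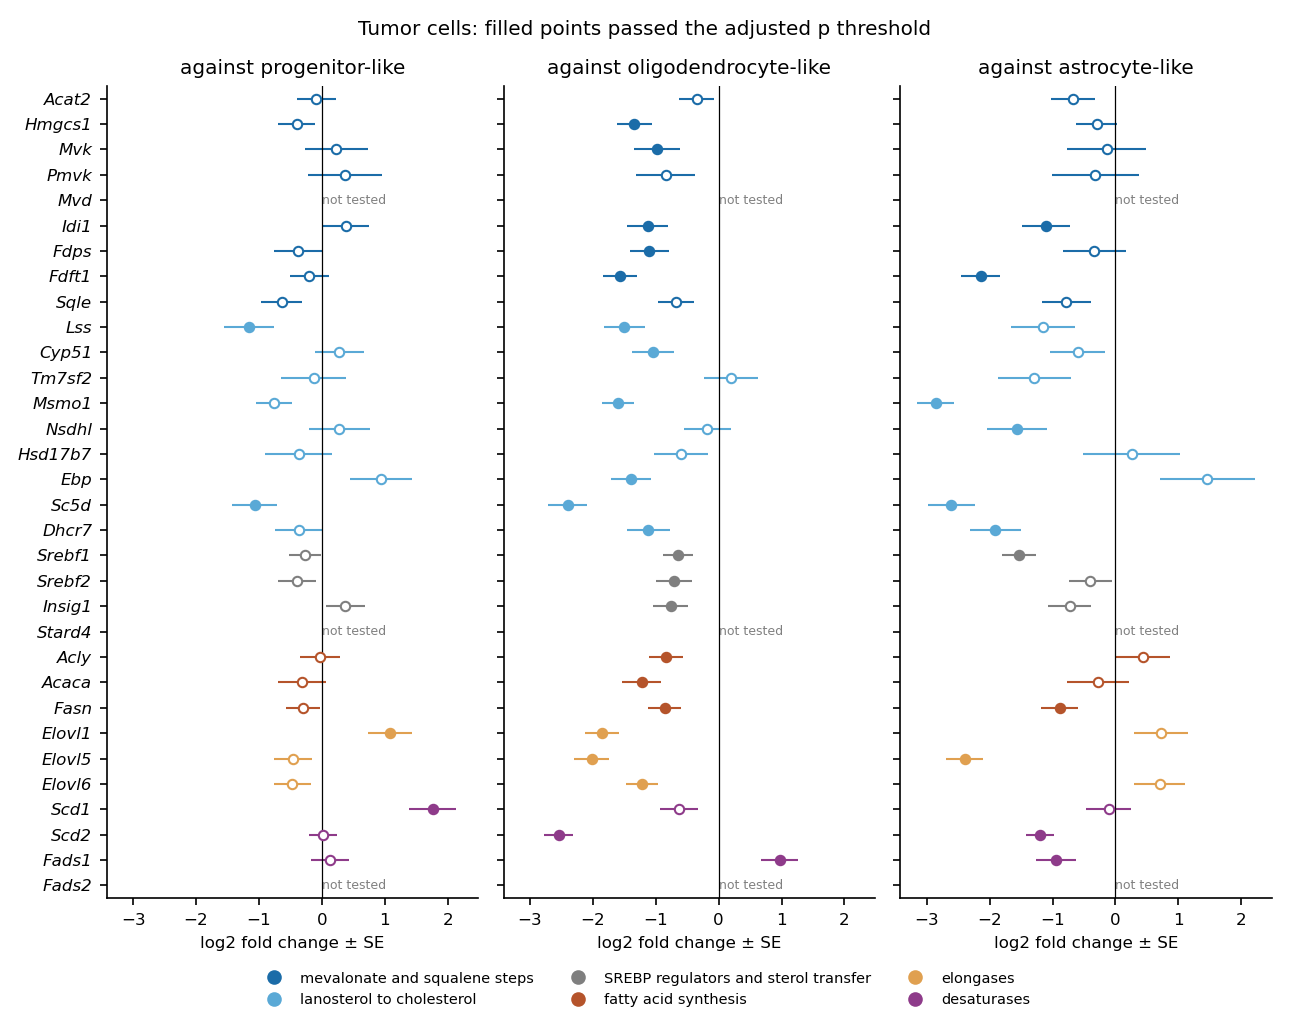
Log2 fold change ± SE of each member in tumor cells against 3 other glial classes, from edgeR on 3 tumor samples, filled where the adjusted p passed 0.05 and coloured by step. Points scatter around 0 against progenitor-like cells, where 4 are filled, and lie mostly below 0 against oligodendrocyte-like (22 filled) and astrocyte-like cells (11 filled).

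Within the tumor, 2 kinds of cells differed in several members. Tumor clusters were called Lgals1-led where the mean log2 level of Lgals1, Anxa2, Cd44 and Timp1 exceeded that of Pdgfra, Cspg4, Olig1 and C1ql1, and Pdgfra-led otherwise, so the names stand for these scores. Lgals1 was at 337 to 1670 CPM in the 5 Lgals1-led clusters and at 1.65 to 115 in the 9 Pdgfra-led ones. Pdgfra was at 49.6 to 102 in the former and at 876 to 1295 in 7 of the latter, but at 9.93 and 119 in the other 2, both myelin-rich. Several mevalonate and squalene genes were lower in Lgals1-led cells, and Scd1 and Srebf1 were higher. The comparison had 2 Lgals1-led sums (medium and late), since the early sample gave 6 such cells, and 3 Pdgfra-led sums. Of 32 members tested, 5 were lower in Lgals1-led cells (8.5% of 12770 genes) and 4 were higher (8.55%). Both counts are small, and whether they exceed these shares was not tested. The median log2 fold change was -0.29 over the members and -0.0029 over all genes. The 9 mevalonate and squalene genes summed to 261 and 365 CPM in Lgals1-led cells, below all 3 sums of Pdgfra-led cells (746 to 945). The 4 desaturases summed to 2427 and 1667 in medium and late Lgals1-led cells and to 2786, 1929 and 1965 in early, medium and late Pdgfra-led cells, which overlap.

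The lower members act between the start of the mevalonate route and lanosterol. Lss was at 3.35 and 7.22 CPM in Lgals1-led cells and at 47.2, 23.2 and 35.2 in Pdgfra-led cells, a log2 fold change of -2.17 (SE 0.45, adjusted p = 0.000662, edgeR). Hmgcs1 was at 60.3 and 76.3 against 366, 283 and 306, a log2 fold change of -1.86 (SE 0.36, adjusted p = 0.000291). Idi1, the isopentenyl isomerase, was at 27.9 and 40 against 224, 91.4 and 132, a log2 fold change of -1.61 (SE 0.35, adjusted p = 0.00115). The groups did not overlap for any of these. Sqle was at 11.2 and 40.7 against 106, 69.6 and 99.1, a log2 fold change of -1.48 (SE 0.37, adjusted p = 0.00392). Fdft1 was at 29.0 and 48.7 against 82.6, 87.7 and 106, a log2 fold change of -1.07 (SE 0.33, adjusted p = 0.0201).

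The higher members were Scd1, Srebf1, Ebp and Elovl1, and Ebp belongs to the same step of the list as the lower Lss. Scd1 was at 518 and 201 CPM in Lgals1-led cells and at 94.5, 68.9 and 96.1 in Pdgfra-led cells, a log2 fold change of 2.31 (SE 0.39, adjusted p = 4.66e-05, edgeR). The high medium value came largely from 1 cluster of 107 cells, 106 of them medium, where Scd1 reached 617. Srebf1, whose targets include genes of fatty acid synthesis, was at 197 and 181 against 130, 87.7 and 69.8, a log2 fold change of 1.42 (SE 0.31, adjusted p = 0.00103). Ebp was at 45.8 and 36.3 against 11.8, 10.9 and 26.3, a log2 fold change of 1.36 (SE 0.41, adjusted p = 0.0182). Elovl1 was at 90.5 and 112 against 106, 52.9 and 46.7, a log2 fold change of 1.13 (SE 0.32, adjusted p = 0.013). Of the 4, Elovl1 was the one whose groups overlapped, through the early Pdgfra-led value alone, which comes from 31 cells without a transgene UMI. Srebf2, which drives the sterol genes, was at 135 and 125 against 165, 162 and 222 and did not pass.

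These calls were the same 9, with Elovl6 added as lower, when the myelin-rich clusters or the early tumor sum were left out. Without the medium sample 3 members were lower and 0 higher by edgeR (3 higher at an unadjusted p under 0.05), and without the late sample 2 were lower and 1 was higher. Each of these fits has 1 Lgals1-led sum, which is assumed to vary like the sums of the other classes. In run 2 alone 5 were lower and 2 higher, and in run 3 alone 2 were lower (Lss and Hmgcs1) and 2 higher (Scd1 and Srebf1). Without scaling factors, which moved the median of all genes to -0.25, 7 members were lower and 2 higher. The 8 myelin genes were lower for 6 of 8 in Lgals1-led cells, with summed levels of 2474 and 3711 against 3984 to 18620, and 0 of 11 cell cycle genes differed at the threshold, with summed levels of 518 and 1234 against 1003 to 1366. The 8 myeloid marker genes summed to 1062 and 498 CPM in Lgals1-led cells against 567, 289 and 266, with a median log2 fold change of 1.37 over 6 tested and 1 of them, Cst3, higher. The part of these markers in the results was not tested.

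**Figure D4:**
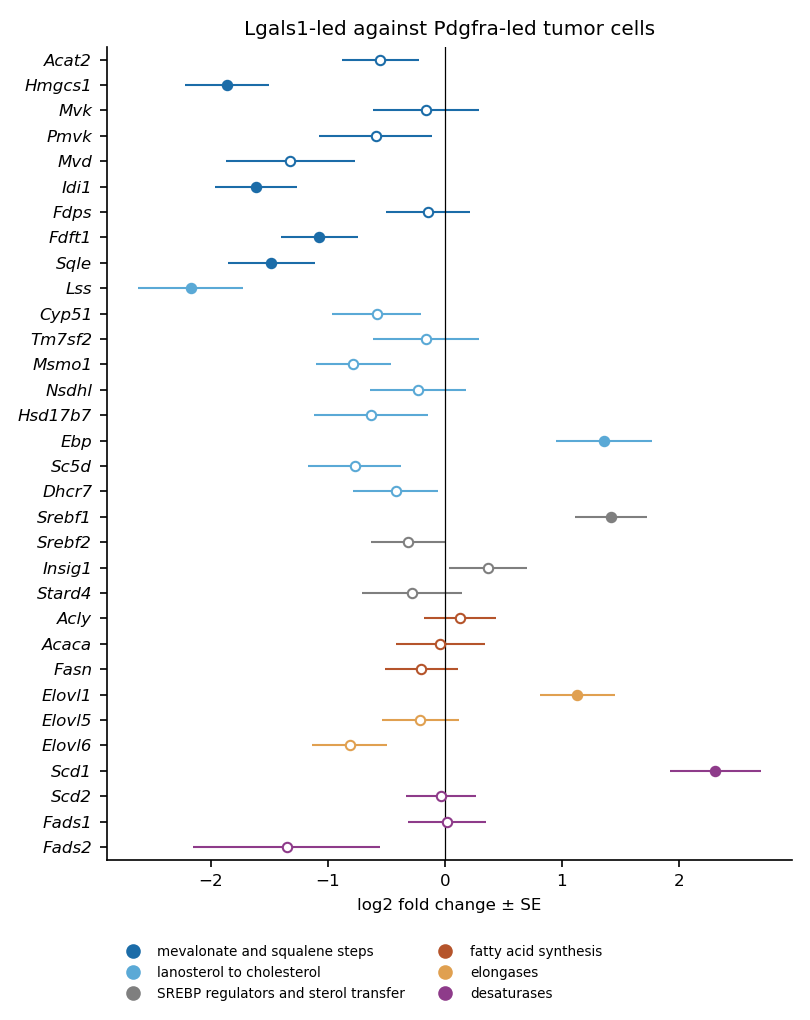
Log2 fold change ± SE of each member in Lgals1-led (2 sums) against Pdgfra-led tumor cells (3 sums), from edgeR, filled where the adjusted p passed 0.05 and coloured by step. Hmgcs1, Idi1, Fdft1, Sqle and Lss are filled on the left, and Ebp, Srebf1, Elovl1 and Scd1 on the right.

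The DNA upstream of members that moved in opposite directions between these tumor cells is shown so that the letters can be compared. Each line gives the 250 bases before an annotated transcript start (RefSeq, GRCm38.p6), 5′ to 3′ on the gene's strand. Capitals mark CCAAT, the box bound by NF-Y, searched on both strands (ATTGG is its reverse), and TCACNCCAC, a core of the sterol regulatory element bound by SREBPs.
Hmgcs1, chr13:119690101-119690350, plus strand: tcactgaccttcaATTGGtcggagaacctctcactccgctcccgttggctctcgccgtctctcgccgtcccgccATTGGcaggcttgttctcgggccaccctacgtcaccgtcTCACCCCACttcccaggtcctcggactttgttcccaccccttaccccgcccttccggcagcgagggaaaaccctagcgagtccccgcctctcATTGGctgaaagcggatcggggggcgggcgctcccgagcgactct
Idi1, chr13:8885356-8885605, plus strand: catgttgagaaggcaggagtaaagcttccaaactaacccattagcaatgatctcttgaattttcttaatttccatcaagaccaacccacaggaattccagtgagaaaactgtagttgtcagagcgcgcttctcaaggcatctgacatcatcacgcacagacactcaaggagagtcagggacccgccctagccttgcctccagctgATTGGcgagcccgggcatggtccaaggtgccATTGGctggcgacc
Lss, chr10:76531355-76531604, plus strand: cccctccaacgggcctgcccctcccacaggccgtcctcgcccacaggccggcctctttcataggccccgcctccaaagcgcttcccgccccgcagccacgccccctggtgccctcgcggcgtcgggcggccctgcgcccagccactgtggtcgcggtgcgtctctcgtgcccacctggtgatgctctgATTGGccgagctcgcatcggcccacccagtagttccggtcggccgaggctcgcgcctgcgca
Ebp, chrX:8193513-8193762, minus strand: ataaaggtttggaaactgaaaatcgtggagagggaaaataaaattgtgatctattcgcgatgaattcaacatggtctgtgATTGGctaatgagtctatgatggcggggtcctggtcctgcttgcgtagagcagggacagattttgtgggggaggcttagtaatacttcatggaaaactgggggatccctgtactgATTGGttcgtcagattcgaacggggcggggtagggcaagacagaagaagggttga
Hmgcs1, Idi1 and Lss were lower and Ebp was higher in Lgals1-led cells, and all 4 hold at least 1 CCAAT, with 3 in Hmgcs1. Srebf1 and Elovl1, also higher, have several starts, some with CCAAT in the bases before them and some without. For Scd1, Sqle and Fdft1, which passed too, no promoter was available to search. The core TCACNCCAC was matched in Hmgcs1 alone, beginning 137 bases before the start. Promoters of 25 members were in the table, and 20 of them (80.0%) hold CCAAT, against 37.5% of 27025 genes. TCACNCCAC was in 1 of the 25 (4.0%) against 1.22% of genes. These are matches of letters and not measured sites.

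In the CD45+ sort, the macrophage or monocyte-like and microglia-like cells both held little of the pathway and differed in few members. Of 28 members tested, 1 was higher in macrophages (11.0% of 11268 genes) and 1 was lower (8.24%), with a median log2 fold change of 0.28 against -0.019 over all genes. Insig1, the sterol-sensing brake on SREBPs, was at 68.5, 87.3 and 85.2 CPM against 58.3, 61.3 and 62.6 in microglia-like cells, a log2 fold change of 0.58 (SE 0.19, adjusted p = 0.0384, edgeR). Elovl6 was at 8.56, 6.99 and 2.66 against 21.7, 18.6 and 14.8, a log2 fold change of -1.50 (SE 0.37, adjusted p = 0.0085). Neither pair of groups overlapped. The Insig1 call was lost without scaling factors, by DESeq2, in either run alone and when any of the tumor samples was left out. Elovl6 kept its call without scaling factors and without the medium sample, and lost it in the others of these settings. The count of calls depended on the settings and ran from 0 to 9: DESeq2 called 0 (3 higher and 1 lower at an unadjusted p under 0.05), edgeR on either run alone called 0, and with called doublets kept 8 were higher and 1 lower. Scd1 was nearly absent from both, with 1, 2 and 6 UMIs in macrophage sums and 5, 2 and 2 in microglia sums. Fdft1, at 66.7, 77.4 and 69.2 in microglia-like cells and 58.2, 37.1 and 49.5 in macrophages, and Ebp, at 46.7, 34.7 and 50.4 and at 49.6, 39.8 and 51.7, were among the members with most UMIs there.

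Between the stages most members stayed within 2-fold. Each ratio compares 1 tumor sample with 1 other, and its exact interval (conditional binomial, 95%) covers counting error only. Tumor cells were compared between late and medium, since the early sum is small and 10.8% of its cells held a transgene UMI. None of the 32 members passed 2-fold in either direction, while 6.79% of all genes were at least 2-fold higher and 3.93% lower. The highest ratios were 1.89 for Acaca (1.44 to 2.52), the first enzyme of fatty acid synthesis, 1.57 for Hsd17b7, 1.47 for Stard4, 1.40 for Mvd and 1.39 for Sqle. The lowest were 0.642 for Scd1 (0.579 to 0.713), 0.679 for Elovl5, 0.737 for Sc5d, 0.757 for Fads2 and 0.784 for Pmvk. For Scd1 the direction differed between runs, at 0.485 in run 2 and 1.36 in run 3. The other members named here kept their direction in both runs, but Pmvk had 0.976 and 0.982 and Stard4 1.2 in each, closer to 1. Runs were mixed unevenly, with 570 of 1060 late tumor cells in run 1 and 208 of 352 medium ones in run 2. Medium and late tumor cells lay partly in different clusters, with 106 medium and 1 late cell in the cluster where Scd1 was at 617 CPM, 91 medium and 0 late cells in another and 0 medium and 101 late cells in a further one. In these ratios, stage and cluster cannot be told apart.

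In progenitor-like cells, several members had higher levels in the late sample. Of 19 members with at least 30 UMIs over both stages, 4 were at least 2-fold higher in the late than in the early sample (8.18% of all genes) and 0 were 2-fold lower (7.05%). A member can pass this minimum through the stage where it is high, and all genes passed the same minimum. Dhcr7 had 12 early and 30 late UMIs, Cyp51 10 and 21, Insig1 17 and 32, and Fads1 34 and 53. The remaining members had too few UMIs to be compared. Dhcr7 went from 33.7 to 132 CPM, a ratio of 3.92 (1.95 to 8.4), and Cyp51, the lanosterol demethylase, from 28.1 to 92.5, a ratio of 3.29 (1.48 to 7.82). Insig1 had a ratio of 2.95 (1.59 to 5.66), Fads1 of 2.44 (1.56 to 3.87) and Acat2, which starts the mevalonate route, of 1.99. In run 2 alone, Dhcr7 had 3.09, Cyp51 1.15, Insig1 2.95, Fads1 2.48 and Acat2 7.56. The lowest were 0.723 for Sc5d, 0.924 for Srebf2, 0.97 for Acaca, 0.989 for Elovl5 and 1.09 for Srebf1, of which Sc5d had 1.65 and Acaca 1.38 in run 2 alone, on the other side of 1. Transgene RNA was at 0 in early progenitor-like cells, which allows up to 8.44 CPM, and at 956 in late ones, and its part in these ratios was not tested.

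In oligodendrocyte-like cells no member reached a 2-fold difference. Of 31 members, 0 were 2-fold higher (4.57% of all genes) or 2-fold lower (3.09%) in the late than in the early sample. Ratios ran from 0.835 for Idi1, 0.863 for Nsdhl, 0.912 for Acly, 0.961 for Cyp51 and 0.97 for Acat2 up to 1.40 for Elovl6, 1.41 for Srebf1, 1.42 for Sqle, 1.48 for Tm7sf2 and 1.56 for Mvd (1.05 to 2.32). Among these named members, the direction differed between run 2 and run 3 for Acly (0.733 and 1.18), Acat2 (0.902 and 1.03), Tm7sf2 (0.939 and 1.93) and Nsdhl (1.01 and 0.304). It differed for further members too, among them Hsd17b7 (2.0 and 0.492) and Acaca (0.731 and 1.72). Pmvk, at 1.28 over all runs, was below 1 in both (0.936 and 0.49). In microglia-like cells 1 of 30 members was 2-fold higher (3.3% of all genes) and 0 were lower (3.18%). That member was Pmvk, the phosphomevalonate kinase, which went from 8.08 to 18.3, a ratio of 2.27 (1.46 to 3.46). Microglia-like cells also shifted between clusters, with 992 early and 516 late cells in a cluster led by P2ry12 and Tmem119. Another, led by P2ry12 and Ccr6, held 1248 early and 187 late cells, and one led by Tnf held 730 early and 74 late cells. Stage and cluster cannot be told apart in these ratios. Behind Pmvk came Acaca at 1.78, Fasn at 1.72, Acat2 at 1.34 and, tied, Fdps and Lss at 1.31, and the lowest were Elovl6 at 0.68, Mvk at 0.703, Mvd at 0.724, Hmgcs1 at 0.796 and Fads1 at 0.834. Pmvk had 2.13 in run 2 and 2.38 in run 3, while Mvd had 1.19 and 0.206, Fdps 1.79 and 0.834, Acat2 0.885 and 1.66, and Fasn 2.65 and 1.01.

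The macrophage or monocyte-like class lay mostly in different clusters at the early and late stages. A cluster with Cxcl9 and H2-Aa among its leading genes held 193 early and 61 late cells, and a cluster with Arg1, Gpnmb and Spp1 held 53 early and 563 late cells. In the ratios, a difference between stages and a difference between these clusters cannot be told apart. Of 20 members with at least 30 UMIs over both stages, 3 were at least 2-fold higher in the late than in the early sample (11.9% of all genes) and 3 were 2-fold lower (5.91%). Fasn went from 10.3 to 40 CPM, a ratio of 3.89 (1.71 to 10.9), on 6 and 75 UMIs. Scd2 went from 135 to 355, a ratio of 2.63 (2.08 to 3.36), and Srebf1 from 15.4 to 37.8, a ratio of 2.45 (1.22 to 5.59), on 9 and 71 UMIs. Fasn and Srebf1 passed the minimum of UMIs through the late sum. All 3 were higher in run 2 alone (3.92, 1.93 and 1.31) and in run 3 alone (3.6, 2.98 and 4.65). The lower members were Hmgcs1 at 0.46 (0.263 to 0.818), Cyp51 at 0.456 (0.226 to 0.946) and Stard4 at 0.393 (0.206 to 0.759). Hmgcs1 had 0.369 in run 2 and 0.488 in run 3, and Cyp51 had 0.323 and 0.592. Stard4 had 0.846 in run 2 and 0.344 in run 3, so its 2-fold difference was in 1 of these runs. Acaca at 1.68, Dhcr7 at 1.62, Pmvk at 0.539 and Acly at 0.635 (0.448 to 0.909) came next in each direction.

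**Figure D5:**
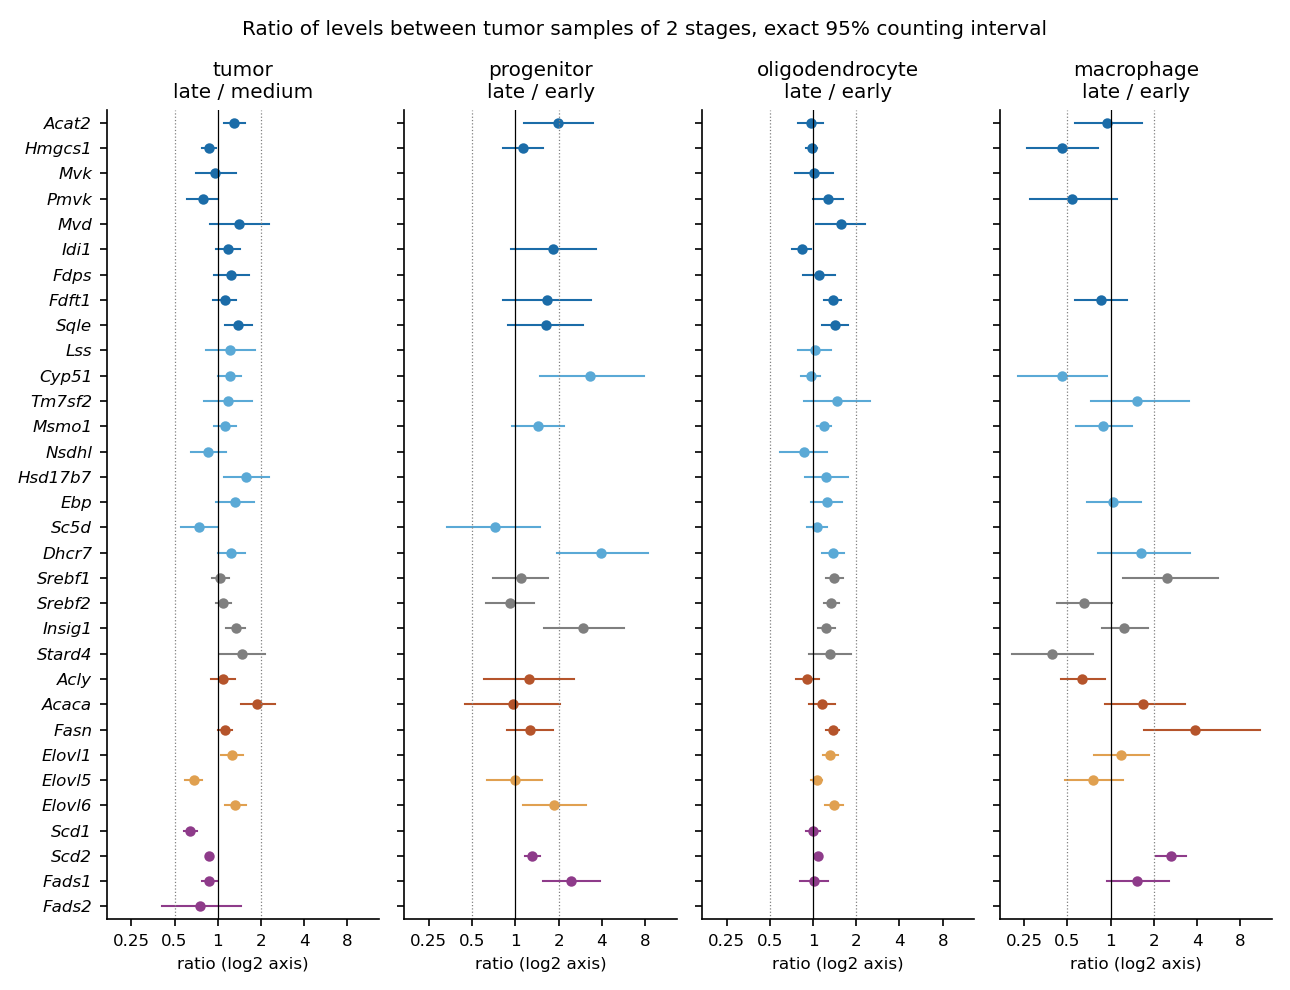
Ratio of each member's level between 2 tumor samples (log2 axis, points) with the exact 95% counting interval (lines) in 4 classes, for members with at least 30 UMIs, with dotted lines at 0.5 and 2. Tumor and oligodendrocyte points lie between the dotted lines, and Fasn, Scd2 and Srebf1 in macrophages and Dhcr7, Cyp51, Insig1 and Fads1 in progenitors lie beyond 2.

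Genes of neighbouring lipid pathways were counted from further lists, with the same fits and threshold. Among all genes tested against oligodendrocyte-like cells, 19.8% were lower in tumor cells and 24.0% were higher. Against oligodendrocyte-like cells, 3 of 7 other cholesterol synthesis genes tested were lower in tumor cells and 0 higher, among them Scap, the escort of SREBPs, at a log2 fold change of -1.24. Of 7 genes of myelin lipid synthesis 6 were lower, led by Fa2h at -3.74 and Ugt8a at -3.53, which make the galactolipids of myelin. Of 11 other genes of fatty acid synthesis 6 were lower, led by Elovl7 at -3.67 and Thrsp at -2.59. Uptake went both ways, with 5 of 9 genes lower and 2 higher, the lipoprotein receptors Lrp1 at 6.47 (272, 202 and 160 CPM in tumor cells against 1.08, 0.453 and 4.0) and Lrp8 at 2.70. Of 7 efflux and storage genes 5 were lower, led by Cyp27a1 at -4.78 and Abcg1 at -2.85, and 1 was higher. Fatty acid activation and oxidation had 4 of 17 higher and 3 lower, with Acsl5 at 4.87 and Acsl1 at -4.05.

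Against progenitor-like cells, 0 of 7 other cholesterol synthesis genes passed, while 4 of 7 efflux and storage genes were lower (Abcg1, a sterol exporter, at -2.28 and Nceh1, a cholesteryl ester hydrolase, at -1.68) and 2 of 9 uptake genes were lower (Lrp1 at -2.11 and Vldlr at -1.14). Of the rest, 1 of 11 other fatty acid synthesis genes (Hsd17b12 at -0.78), 1 of 17 activation genes (Acsl6 at -2.11) and 2 of 7 myelin lipid genes (Kdsr at -1.02, Degs1 at -0.85) were lower. Among all genes tested there, 11.5% were lower and 11.0% higher, so lists with 1 call are near or below that share. Against astrocyte-like cells, 4 of 7 efflux genes were lower, led by Apoe at -4.06 (734, 572 and 318 CPM against 7682, 7512 and 8073) and Cyp27a1 at -2.77. Thrsp at -5.94 and Hacd2 at -3.29 led 4 of 11 lower fatty acid genes. Acsl6 at -5.62 led 5 of 17 lower activation genes, and 1 was higher, Acsl5, which had no UMI in any astrocyte-like sum. Vldlr, at 2.14, was the 1 of 9 uptake genes that was higher, and of the myelin lipid genes 1 was higher (Gal3st1 at 2.84) and 2 lower (Kdsr at -1.35). None of 7 other cholesterol synthesis genes passed there. For all genes tested against astrocyte-like cells the shares were 10.7% lower and 10.6% higher.

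Between Lgals1-led and Pdgfra-led tumor cells, the receptors Lrp8 at -2.28 and Lrp1 at -1.88 led 3 lower uptake genes of 11, and 2 were higher. Apoe was higher at 1.91 (1062 and 482 CPM against 862, 253 and 81.6, which overlap through the early value of 862). Cyp27a1 and Acsl6 had no UMI in either Lgals1-led sum. Ugt8a at -5.63 and Fa2h at -3.80 led 3 of 7 lower myelin lipid genes, and Elovl7 at -3.76 and Elovl2 at 3.76 led the 3 of 16 fatty acid genes that passed. Acsl3 at -1.46 was another of the 4 activation genes that passed of 18. For all genes tested between these tumor cells the shares were 8.5% lower and 8.55% higher. In macrophages against microglia, Ch25h at 4.20 and Apoe at 2.66 led 4 of 8 higher efflux genes, and Lipa at 1.01 and Npc2 at 0.82 led 3 of 9 higher uptake genes, and 1, Mylip, was lower. Thrsp at -1.95 and Mlxipl at -1.31 led 3 of 11 lower fatty acid genes, and 1, Hacd2, was higher. Among all genes tested, 8.24% were lower and 11.0% higher in macrophages. In CD45+ against CD45-, 4 of 9 other cholesterol synthesis genes were lower, and of 18 other fatty acid genes 12 were lower (Elovl7 at -4.74, Elovl4 at -3.92) and 3 higher (Mlxipl, Thrsp and Hacd2). Of 7 myelin lipid genes 6 were lower (Fa2h at -5.61, Ugt8a at -4.75) and 1, Sptlc2, was higher. Of 11 efflux genes 5 were higher and 2 lower, with Apoe at 3.46 and Abcg4 at -3.82. Of 11 uptake genes 5 were higher and 2 lower, with Mylip at 3.19 and Vldlr at -4.20. Activation genes gave 4 higher and 6 lower of 19, with Acsl6 at -3.74 and Acsl3 at -3.58. For all genes tested between the sorts the shares were 25.7% lower and 20.3% higher.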

How the data were processed

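The deposited table held raw UMI counts per gene and cell, and the authors had made them with bcbio-nextgen, in which RapMap assigned reads to GRCm38 transcripts, before separating cells from empty droplets. The study describes removing ambient RNA (DropletUtils) and doublets (scDblFinder) in later steps, and whether the deposited counts precede them is not given in the sources used here. The authors' library annotation gave sort, stage and run, and 17 cell columns of a library without an annotation row were not used. Cells with at least 500 UMIs and 500 genes and at most 20% mitochondrial UMIs were kept, and 113 called doublets (0.635% of cells tested) were removed, leaving 17764 cells. Cells were clustered (2000 variable genes, 40 components, 20 neighbours, resolution 1) without 109 lipid genes, which include the members, and named from at least 3 markers. The tumor name also required a human EGFR UMI in at least 20% of a cluster's medium and late CD45- cells. The tumor and progenitor clusters were clustered again, a step chosen after the first clusters were seen, and 3 of 44 clusters stayed unnamed. Class names are rebuilt here and can differ from those of the study.

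UMIs were summed per tumor sample and class (at least 20 cells) and tested two-sided with edgeR's quasi-likelihood test (TMM factors, low-count filter, tumor sample as a block, Benjamini-Hochberg adjustment over all genes tested, threshold 0.05). Residual degrees of freedom were 2 to 7. The SE is the log2 fold change divided by the square root of F. Sums of 1 tumor sample come from the same animals, so the block was kept. Their deviations from the group means correlated at 0.278 to 0.383 between sorts and 0.299 to 0.384 between myeloid classes, and at 0.0226 or more in the other fits. With this block, p-values rest on how differences between classes or sorts vary across the 3 tumor samples, pooled over the groups of a fit. The 3 tumor samples also differ in stage. On simulated counts the fits recovered 90.6% to 99.0% of 4-fold and 9.57% to 45.9% of 2-fold changes. The simulation changed fewer genes than were called in the data. It gave all classes and tumor samples the same mean profile and all genes a common dispersion. These shares are therefore no measure of the power for the members. Levels are CPM of the class, without length scaling because the tags are 3′ ends. Tests compare groups of cells and not genes, and a summed level weights each gene by its UMIs. Intervals (95%) and limits for 0 UMIs (3 counts) cover counting error only.

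The members and gene lists were chosen with earlier results of these data known. Members past the threshold were named with full statistics for the 6 largest changes in each direction, other lists by counts and their 2 largest changes (some genes and alleles are not reported here), and stage ratios by the 5 highest and 5 lowest among members with at least 30 UMIs. Genes chosen outside this rule, after their values were seen, were those named for a group or setting. Alternatives were other normalization, filters, tools, runs, cell sets and leaving out each tumor sample. Leaving out the early tumor sum, the myelin-rich clusters or progenitor cells with transgene RNA was chosen after seeing the data. Tools were R 4.3.3, edgeR 4.0.16, DESeq2 1.42.0, Python 3.11.15, scanpy 1.11.5, scipy 1.17.1 and pandas 2.3.3.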

Additional observations from a re-analysis of the deposited data

How the results depend on the processing

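Of 1183 values of called members under the alternatives, 976 kept their direction and call, 206 kept the direction and lost the call, and 1 reversed (Nsdhl against astrocyte-like cells, 6.76 in run 3 alone). The cause of the moves below was not tested beyond the smaller number of samples or cells that some settings leave. Against progenitor-like cells, where 4 members were called, 1 was called in run 2 alone and 1 in run 3 alone, 2 each with doublets kept, with top doublet scores removed, with lipid genes kept in clustering, with tumor cells taken by a transgene UMI and with every gene of at least 1 count, and 0 to 2 when a tumor sample was left out. Over all genes, 1866 were called, with 1184 in run 2, 847 in run 3, 2925 with a minimum of 50 cells and 457 to 2520 when a sample was left out. Against oligodendrocyte-like cells, where 22 members were called, 13 were called without scaling factors and 11 to 25 when a sample was left out. Over all genes, 5521 were called with a minimum of 50 cells and 2227 to 5469 when a sample was left out. Against astrocyte-like cells, where 11 members were called, 7 were called in run 2, 2 in run 3 and 5 to 11 when a sample was left out. Over all genes these were 1039, 331 and 631 to 2208. Between Lgals1-led and Pdgfra-led cells, where 9 members were called, 4 were called in run 3 and 3 to 10 when a sample was left out. Over all genes 1165 were called in run 2 and 743 to 2439 when a sample was left out. Between macrophages and microglia, where 2 members were called, 0 were called in run 2, in run 3 and by DESeq2, 1 without scaling factors, 5 at resolution 2, 7 with top doublet scores removed, 8 with lipid genes kept in clustering, 9 with doublets kept and 0 to 2 when a sample was left out. Over all genes these comparisons gave 1146 in run 2, 1189 in run 3, 1311 by DESeq2, 3390 with lipid genes kept, 3456 with doublets kept and 1015 to 1515 when a sample was left out.

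Without the replicate block (the tumor sample), 22 members were called between the sorts, 4 against progenitor-like cells, 20 against oligodendrocyte-like cells, 11 against astrocyte-like cells, 9 between tumor subtypes and 1 between macrophages and microglia, where 975 genes in all were called. Without scaling factors, the share of higher calls over all genes went from 44.2% to 28.4% between the sorts, from 54.7% to 70.5% against oligodendrocyte-like cells, from 50.2% to 36.5% between tumor subtypes and from 57.1% to 34.4% between macrophages and microglia. The summed level was 12312 in oligodendrocyte-like cells in run 2, 5953 in astrocyte-like cells with every deposited cell and 5885 in run 3 (the early sum alone), and in microglia-like cells 957 in run 2, 888 in run 3 and 901 as a mean over cells. Depth limits the small sums most, above all early tumor cells and late astrocyte-like cells.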
